A study of Homo sapiens with 15 samples.

Results

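The genes described are 10 secreted cytokines of the interleukin-1 (IL-1), interleukin-6 (IL-6) and colony-stimulating factor (CSF) systems, namely IL1A, IL1B, IL1RN, IL18, IL33, IL6, LIF, IL11, CSF1 and CSF2. They were picked by symbol from the 25503 genes of the expression table, and all 10 were present. RNA sequencing had been done on AsPC-1 and Capan-1, 2 cell lines of human pancreatic ductal adenocarcinoma, started from ascites and from a liver metastasis in that order. AsPC-1 cells carried small interfering RNA (siRNA) against B4GALT5 (siB4GALT5), against B3GNT3 (siB3GNT3) or a control siRNA (siNC), and Capan-1 cells carried siB3GNT3 or siNC, with 3 libraries in each of the 5 groups. The enzyme made from B4GALT5 adds galactose in the synthesis of lactosylceramide, and that made from B3GNT3 adds N-acetylglucosamine to growing glycan chains. The labels give no siRNA dose or harvest time, and they do not say whether the replicates were separate cultures, and every p-value here rests on library-to-library spread that may be technical only.

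Cytokines of the IL-1 family are made by stressed or damaged epithelium and act through paired receptors and the adaptor MyD88. IL-6, leukaemia inhibitory factor (LIF) and interleukin-11 share the signalling receptor gp130, and the CSFs control survival and differentiation of macrophages and granulocytes. In pancreatic cancer, tumour-derived IL-1 is known to turn fibroblasts towards an inflammatory state in which these secrete IL-6 and LIF, and tumour-derived CSFs are known to recruit myeloid cells.

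Both targets were checked first. Levels are FPKM (fragments normalised to transcript length and to library depth) throughout. B4GALT5 stood at 8.70, 8.49 and 8.03 FPKM in siB4GALT5 AsPC-1 cells, against 38.7, 35.8 and 35.5 FPKM in siNC AsPC-1 cells. B3GNT3 stood at 2.53 and 2.50 FPKM in siB3GNT3 replicates 1 and 2 of AsPC-1, against 22.5, 23.8 and 23.3 FPKM with siNC, whereas siB3GNT3 replicate 3 held 24.2 FPKM. Root mean square log2 distances were taken over genes that reached 1 FPKM in 3 or more of the 15 libraries. The siNC libraries of AsPC-1 lay at 0.124 to 0.126, each from the mean of the other siNC libraries. The siB3GNT3 libraries were measured from the mean of all siNC libraries, so the siNC distances are not strictly like theirs. Replicates 1 and 2 lay at 0.442 and 0.454, and replicate 3 lay at 0.118. Its target is therefore not reduced, and the library labelled siB3GNT3 replicate 3 of AsPC-1 was set apart: siB3GNT3 in AsPC-1 below means replicates 1 and 2, and tests of the cytokines that involve it are also given with all 3 libraries as labelled. Capan-1 cells held B3GNT3 at 1.32, 1.67 and 1.84 FPKM with siB3GNT3, against 13.3, 13.2 and 13.7 FPKM with siNC. B3GNT3 was itself higher with siB4GALT5 in AsPC-1 (32.4, 30.8 and 27.9 FPKM; log2 change 0.37 ± 0.06, SE; adjusted p = 0.000874). Of 6 ductal epithelial markers, KRT8, KRT18, KRT19, EPCAM and MUC1 exceeded 1 FPKM in every library, but the epithelial cadherin CDH1 stayed below 1 FPKM in AsPC-1 (lowest 0.109). The pan-leukocyte gene PTPRC reached at most 0.160 FPKM and the macrophage receptor CSF1R at most 0.104 FPKM. However, the leukocyte marker CORO1A held 0.554 to 4.26 FPKM, and the macrophage marker CD14 reached 5.44 FPKM. Single stromal or myeloid markers were high in these lines, with CD68 at 38.8 to 212 FPKM, COL1A1 at up to 77.6 FPKM and LUM at 5.63 to 91.8 FPKM. The depth of the libraries relative to each other, read from the smallest FPKM steps, ranged from 0.949 to 1.03, and the absolute depth is unknown.

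The knockdown comparisons ask how expression differs between cells with each siRNA and cells of the same line with siNC. The labels give no siRNA sequences, and loss of the enzyme cannot be told apart from other effects of an siRNA. Changes were tested on log2(FPKM + 1) with limma over all genes that reached 1 FPKM in 3 or more of the fitted libraries, and a gene was called at a Benjamini-Hochberg adjusted p under 0.05. A log2 change on this scale understates the change of genes near or below 1 FPKM.

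The 2 lines made different cytokines before any knockdown. With siNC, the alarmin IL1A and IL1B exceeded 1 FPKM in AsPC-1 only, and IL6, CSF1 and CSF2 in Capan-1 only, while IL18 and LIF were made by both. In siNC AsPC-1 cells the order by mean level was IL18 (40.9 FPKM), LIF (27.5 FPKM), IL1A (6.37 FPKM) and IL1B (1.83 FPKM), with no overlap between neighbours in that order, and the other 6 members averaged under 1 FPKM. In siNC Capan-1 cells the order was IL18 (48.0 FPKM), CSF1 (21.4 FPKM), IL6 (19.7 FPKM), LIF (17.5 FPKM) and CSF2 (9.28 FPKM), again with no overlap between neighbours, and the other 5 averaged under 1 FPKM. IL18, the interferon-gamma inducing member of the IL-1 family, thus led in both lines.

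A comparison of the siNC groups of both lines called 78.1% of all genes, so a call there says little about the cytokines in particular. Of the members above 1 FPKM in both lines, LIF was higher in AsPC-1 than in Capan-1 (log2 difference 0.62, adjusted p = 0.00046) and IL18 was not called (-0.23, adjusted p = 0.131). The others reached 1 FPKM with siNC in 1 line alone, which fixes the direction, and their differences are descriptions: IL1A averaged 6.37 FPKM in siNC AsPC-1 cells and 0.398 FPKM in siNC Capan-1 cells, IL1B 1.83 and 0.515 FPKM, CSF1 0.187 and 21.4 FPKM, and CSF2 0.635 and 9.28 FPKM, in the same order of lines. IL6, treated likewise, was all but missing from AsPC-1, at 0.00829, 0 and 0.00824 FPKM with siNC, against 20.7, 19.1 and 19.2 FPKM in siNC Capan-1 cells. This contrast also helped to define the gene set. In fragments, a step of 0.00829 FPKM corresponds to 1 IL6 fragment, so the AsPC-1 control libraries held 1, 0 and 1 fragments of IL6.

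**Figure D1:**
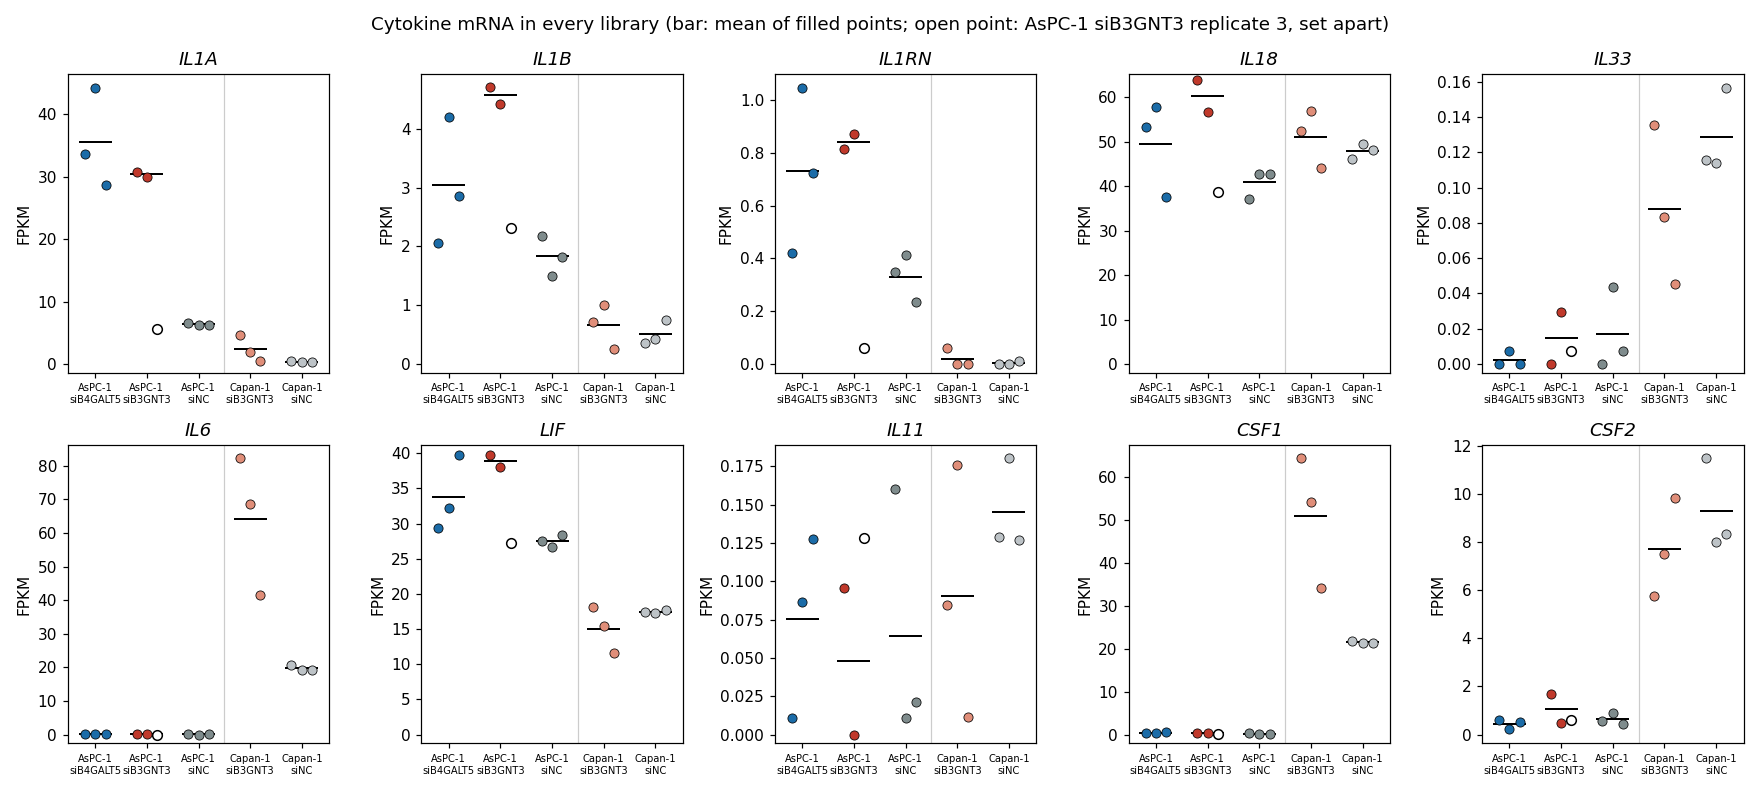
FPKM of each of the 10 cytokines (y axis, own scale for each gene) in every library, by group (x axis); filled points are libraries, bars are the means of filled points, and the open point is siB3GNT3 replicate 3 of AsPC-1, whose target is not reduced. IL1A stands at 28.7 to 44.2 FPKM with siB4GALT5 and 30.0 to 30.8 FPKM with siB3GNT3 in AsPC-1 against 6.21 to 6.59 FPKM with siNC, while IL6 and CSF1 are high in Capan-1 only, at 41.6 to 82.2 FPKM and 34.0 to 64.2 FPKM with siB3GNT3.

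IL1A and IL1B lie side by side on the minus strand of chromosome 2 (GRCh38, GENCODE gene bounds 112773915 to 112784590 and 112829751 to 112836903, 45.2 kb apart). Both were called higher in AsPC-1 with each knockdown, though the siB4GALT5 call on IL1B was lost under several alternatives given below. The 250 bases upstream of their RefSeq starts (GRCh38.p14) are shown because both neighbouring genes were called. Each was searched on both strands for GGG, any 5 bases and CC (NF-kB), TGANTCA (AP-1) and TTGCNNAA (C/EBP), with matches in capitals; the last base is the one before the start.
IL1A, chr2:112784494-112784743, minus strand: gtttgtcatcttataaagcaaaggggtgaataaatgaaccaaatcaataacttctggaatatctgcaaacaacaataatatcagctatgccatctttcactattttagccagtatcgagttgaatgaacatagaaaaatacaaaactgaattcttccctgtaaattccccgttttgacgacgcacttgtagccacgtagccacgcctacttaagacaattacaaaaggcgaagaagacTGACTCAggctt
IL1B, chr2:112836780-112837029, minus strand: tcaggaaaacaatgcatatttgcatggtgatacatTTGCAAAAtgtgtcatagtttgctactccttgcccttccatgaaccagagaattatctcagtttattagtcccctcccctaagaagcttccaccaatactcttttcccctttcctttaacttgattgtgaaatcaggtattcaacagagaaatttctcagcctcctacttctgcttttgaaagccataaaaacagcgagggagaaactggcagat
The capitals in IL1A are an AP-1 match 12 bases upstream of the start, letters that 6.59% of 34788 RefSeq promoter windows of this length hold. Those in IL1B are a C/EBP match 215 bases upstream, held by 9.05% of windows. A match describes letters and not binding. The GENCODE bounds of both genes reach into these windows (to base 112784590 for IL1A and 112836903 for IL1B), so what counts as upstream depends on the annotation.

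IL1A, which encodes IL-1 alpha, an alarmin active in its precursor form, showed the largest change of the members that could be tested in AsPC-1. It stood at 33.6, 44.2 and 28.7 FPKM with siB4GALT5 and at 30.8 and 30.0 FPKM with siB3GNT3, against 6.59, 6.21 and 6.32 FPKM with siNC. Every knockdown library lay above every siNC library by a wide gap. In bulk RNA, more cells making a transcript and more of it per cell cannot be told apart. The log2 change was 2.29 ± 0.13 (SE) with siB4GALT5 (adjusted p = 1.09e-06) and 2.09 ± 0.14 with siB3GNT3 (adjusted p = 5.18e-06). The library set apart held 5.62 FPKM, below the siNC libraries; with all 3 siB3GNT3 libraries as labelled, the change was 1.34 and was not called (adjusted p = 0.168), while the siB4GALT5 call stayed (adjusted p = 0.00947).

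IL1B encodes IL-1 beta, whose precursor is cleaved, commonly by caspase-1, before it acts. It held 2.05, 4.21 and 2.85 FPKM with siB4GALT5 and 4.71 and 4.43 FPKM with siB3GNT3, against 2.18, 1.50 and 1.81 FPKM with siNC. The siB3GNT3 libraries lay above all controls, whereas siB4GALT5 replicate 1 fell among them. The log2 change was 0.98 ± 0.19 with siB3GNT3 (adjusted p = 0.00222; as labelled 0.73, adjusted p = 0.168) and 0.48 ± 0.17 with siB4GALT5 (adjusted p = 0.0354). The siB4GALT5 call on IL1B was lost with all libraries as labelled (adjusted p = 0.135) and without siB4GALT5 replicate 2 (0.28, adjusted p = 0.0965), siNC replicate 2 (0.40, adjusted p = 0.119) or siNC replicate 3 (0.48, adjusted p = 0.0824).

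IL1RN encodes the IL-1 receptor antagonist, which occupies the receptor without signalling, and lies on the plus strand of chromosome 2 (113107214 to 113134016), 270.3 kb beyond IL1B. It was too low to be tested in either line. In AsPC-1 it held 0.419, 1.05 and 0.724 FPKM with siB4GALT5 and 0.813 and 0.871 FPKM with siB3GNT3, against 0.347, 0.413 and 0.234 FPKM with siNC. The knockdown libraries lay above the controls, though siB4GALT5 replicate 1 did so only narrowly, at about 40 estimated fragments against 34, 40 and 23 fragments with siNC. The library set apart held 0.0614 FPKM, the lowest of all AsPC-1 libraries. In Capan-1 the gene was at most 0.0609 FPKM and listed at 0 in 4 of 6 libraries.

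In Capan-1, IL1A and IL1B stayed below the filter and are given by value. IL1A held 4.70, 1.91 and 0.496 FPKM with siB3GNT3, against 0.511, 0.395 and 0.287 FPKM with siNC. Replicates 1 and 2 lay above all controls and replicate 3 lay among them. IL1B held 0.722, 1.00 and 0.255 FPKM with siB3GNT3, against 0.358, 0.433 and 0.753 FPKM with siNC, and the groups overlapped.

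IL18 (chromosome 11, 112143251 to 112164117, minus strand) encodes a cytokine that, like IL-1 beta, is released by caspase-1 cleavage. In AsPC-1 it held 53.3, 57.8 and 37.5 FPKM with siB4GALT5 and 63.9 and 56.8 FPKM with siB3GNT3, against 37.2, 42.7 and 42.8 FPKM with siNC. The siB3GNT3 libraries lay above all controls and siB4GALT5 replicate 3 among them. IL18 rose with siB3GNT3 (log2 change 0.55 ± 0.16, adjusted p = 0.0152) but was not called as labelled (0.34, adjusted p = 0.264), without siB3GNT3 replicate 1 (0.47, adjusted p = 0.107) or without siNC replicate 1 (0.49, adjusted p = 0.0519). With siB4GALT5 its change was 0.25 ± 0.14 and not called (adjusted p = 0.155), but it was called without siB4GALT5 replicate 3 (0.43, adjusted p = 0.000449). In Capan-1 it held 52.4, 56.9 and 44.0 FPKM with siB3GNT3, against 46.2, 49.6 and 48.3 FPKM with siNC, a log2 change of 0.08 that was not called (adjusted p = 0.539); without siB3GNT3 replicate 3 it was 0.18 and called (adjusted p = 0.0292). IL33 (chromosome 9, 6215786 to 6257983, plus strand), a nuclear alarmin that binds the receptor ST2, was at or below 0.0435 FPKM in AsPC-1. It held 0.135, 0.0836 and 0.0454 FPKM with siB3GNT3 in Capan-1, against 0.116, 0.114 and 0.157 FPKM with siNC, and these groups overlapped.

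IL6 (chromosome 7, 22725884 to 22732002, plus strand) encodes the founding gp130 cytokine, and in Capan-1 it was the member with the largest called change. It stood at 82.2, 68.7 and 41.6 FPKM with siB3GNT3, against 20.7, 19.1 and 19.2 FPKM with siNC. The groups did not overlap, and the lowest knockdown library was still above every control by a wide gap. The log2 change was 1.60 ± 0.21 (adjusted p = 0.00134), and the call stayed when any 1 of the 6 libraries was left out (1.4 to 1.88; adjusted p = 7.18e-07 to 0.00957). The replicate with most IL6 also had least B3GNT3 (1.32 FPKM) and the replicate with least IL6 had most (1.84 FPKM). The log2 distances of replicates 1, 2 and 3 from the siNC mean, over the genes used for distances above, fell in the same order (0.428, 0.37 and 0.326). A link between the B3GNT3 level and IL6 was not tested. In AsPC-1 the gene stayed below 0.15 FPKM: it held 0.0850, 0.101 and 0.0414 FPKM with siB4GALT5 and 0.0165 and 0.145 FPKM with siB3GNT3, which are 10, 12 and 5 and 2 and 17 estimated fragments, against 1, 0 and 1 fragments with siNC. These counts were not tested, and the library set apart held 0. IL6 overlaps other annotated genes (STEAP1B and an antisense RNA), as do IL18 and LIF, and whether counting used the strand is not stated in the labels, so reads of such partners cannot be told apart.

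The window upstream of IL6 is shown with that of CSF2, a member expressed in Capan-1 that was not called there, searched and printed as above.
IL6, chr7:22726950-22727199, plus strand: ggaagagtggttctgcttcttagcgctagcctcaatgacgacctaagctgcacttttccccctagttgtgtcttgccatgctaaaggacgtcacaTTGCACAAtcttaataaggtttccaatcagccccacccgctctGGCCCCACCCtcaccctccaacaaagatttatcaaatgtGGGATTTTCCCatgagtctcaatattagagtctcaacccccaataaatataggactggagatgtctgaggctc
CSF2, chr5:132073539-132073788, plus strand: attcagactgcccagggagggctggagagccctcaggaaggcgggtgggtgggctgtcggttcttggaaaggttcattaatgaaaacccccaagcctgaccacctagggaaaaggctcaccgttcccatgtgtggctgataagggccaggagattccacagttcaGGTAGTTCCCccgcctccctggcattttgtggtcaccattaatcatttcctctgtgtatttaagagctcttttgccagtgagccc
In IL6 the capitals mark an NF-kB match 112 bases upstream, a pair of overlapping NF-kB matches 73 and 72 bases upstream, printed as GGGATTTTCCC, and a C/EBP match 155 bases upstream. The whole IL6 window lies inside the gene bounds given above for IL6, so what counts as upstream there depends on the annotation. CSF2 holds 1 NF-kB match 85 bases upstream. The NF-kB letters are common, in 54.4% of windows, so their presence in both genes does not set these apart. Windows for IL18, LIF and CSF1 are not shown, since 7 of the 10 members matched the RefSeq promoter table.

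LIF (chromosome 22, 30240447 to 30246851, minus strand) encodes a gp130 cytokine that signals through the LIF receptor. In AsPC-1 it held 29.4, 32.2 and 39.8 FPKM with siB4GALT5 and 39.8 and 38.1 FPKM with siB3GNT3, against 27.5, 26.6 and 28.3 FPKM with siNC. All 5 knockdown libraries lay above all controls, siB4GALT5 replicate 1 narrowly. The log2 change was 0.28 ± 0.10 with siB4GALT5 (adjusted p = 0.031) and 0.49 ± 0.11 with siB3GNT3 (adjusted p = 0.00408). As labelled neither was called (adjusted p = 0.166 and 0.191), and the siB4GALT5 call was also lost without siNC replicate 1 (adjusted p = 0.0737), 2 (adjusted p = 0.0924) or 3 (adjusted p = 0.0573). Capan-1 cells held 18.2, 15.4 and 11.6 FPKM with siB3GNT3, against 17.4, 17.3 and 17.8 FPKM with siNC. The groups overlapped there, and the change of -0.22 ± 0.13 was not called (adjusted p = 0.239). IL11 (chromosome 19, 55364389 to 55370463, minus strand), the third gp130 cytokine, reached at most 0.18 FPKM, or 17 estimated fragments, in any library, and its groups overlapped in both lines.

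CSF1 (chromosome 1, 109910242 to 109930992, plus strand) encodes the macrophage growth factor that binds CSF1R, and it rose with IL6 in Capan-1. It held 64.2, 54.0 and 34.0 FPKM with siB3GNT3, against 21.7, 21.4 and 21.2 FPKM with siNC. The groups did not overlap, and the replicates stood in the same order as for IL6. The log2 change was 1.16 ± 0.20 (adjusted p = 0.0039), and leaving out 1 library at a time gave 0.97 to 1.42 with the call kept each time (adjusted p = 2.03e-06 to 0.0211). AsPC-1 held 0.238, 0.30 and 0.580 FPKM with siB4GALT5 and 0.347 and 0.374 FPKM with siB3GNT3, against 0.317, 0.165 and 0.0788 FPKM with siNC, below the filter.

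CSF2 (chromosome 5, 132073790 to 132076170, plus strand) encodes GM-CSF, a growth factor of granulocytes and macrophages. In Capan-1 it held 5.76, 7.50 and 9.84 FPKM with siB3GNT3, against 11.5, 8.03 and 8.33 FPKM with siNC. The groups overlapped, and the change of -0.25 ± 0.18 was not called (adjusted p = 0.315); without siB3GNT3 replicate 3 it was -0.42 and called (adjusted p = 0.0339). In AsPC-1 it held 0.595, 0.228 and 0.514 FPKM with siB4GALT5 and 1.67 and 0.496 FPKM with siB3GNT3, against 0.547, 0.910 and 0.448 FPKM with siNC, and overlapped. The mRNA of the receptors for these factors was below 1 FPKM in every library. CSF1R was at most 0.104 FPKM and CSF2RB at most 0.00512 FPKM in any library, while CSF2RA reached 0.822 FPKM in Capan-1 and was listed at 0 in AsPC-1.

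Counted over the members, 3 of the 4 that could be tested rose with siB4GALT5 in AsPC-1 and none fell, in a comparison that called 58.2% of all genes. All 4 tested rose with siB3GNT3 in AsPC-1, where 52.9% of all genes were called; with all 3 libraries as labelled 0% were called by limma, and no member, while 3011 genes and 2 members had an unadjusted p under 0.05. In Capan-1, 2 of 5 tested rose and none fell, beside 32.9% called among all genes. The median log2 change of the tested members was 0.38, against 0.06 over all genes, with siB4GALT5, 0.77, against 0.07, with siB3GNT3 in AsPC-1, and 0.08, against 0.02, in Capan-1. Since the tested members are those that the filter kept, these counts describe them and not the other members. The siB4GALT5 and siB3GNT3 comparisons in AsPC-1 share their siNC libraries.

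**Figure D2:**
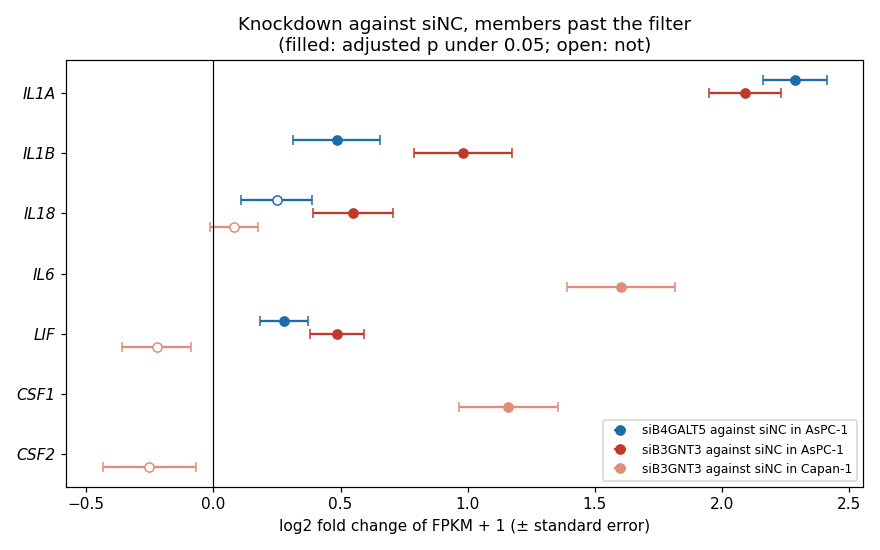
Log2 change of FPKM + 1 (x axis, ± standard error) for the cytokines that passed the filter (y axis), with siB4GALT5 in AsPC-1, siB3GNT3 in AsPC-1 (replicates 1 and 2) and siB3GNT3 in Capan-1, each against siNC of its line; filled points have an adjusted p under 0.05. IL1A changed by 2.29 and 2.09 in AsPC-1, and IL6 by 1.60 and CSF1 by 1.16 in Capan-1.

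The knockdowns were also set against each other in AsPC-1, a comparison that called 35.1% of all genes. No member was called by limma, and 1 had an unadjusted p under 0.05. The log2 difference of siB4GALT5 minus siB3GNT3 was 0.20 for IL1A (adjusted p = 0.312), -0.50 for IL1B (adjusted p = 0.0728), -0.30 for IL18 (adjusted p = 0.167) and -0.21 for LIF (adjusted p = 0.16). Leaving out siB4GALT5 replicate 3 gave a call for IL1A (0.33, adjusted p = 0.0226) and for LIF (-0.33, adjusted p = 0.00128), and leaving out siB4GALT5 replicate 2 gave one for IL1B (-0.70, adjusted p = 0.00739), so these data do not show that the knockdowns act alike on them. With all 3 siB3GNT3 libraries as labelled, the differences were 0.94 for IL1A (adjusted p = 0.237), -0.25 for IL1B (adjusted p = 0.51), -0.09 for IL18 (adjusted p = 0.788) and -0.04 for LIF (adjusted p = 0.875).

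Whether the response to siB3GNT3 differed between the lines was tested as an interaction, in which 32.7% of all genes were called. Of the members above 1 FPKM in both lines, LIF responded differently, by 0.71 ± 0.19 in AsPC-1 minus Capan-1 (adjusted p = 0.0119). As labelled its difference was 0.54 and not called (adjusted p = 0.138). IL18 was not called (0.47, adjusted p = 0.0869; as labelled 0.26, adjusted p = 0.538). The other members entered this test mainly or only through 1 line and were low in the other, where log2(FPKM + 1) understates a response, so their differences are given as descriptions. They were -1.50 for IL6 and -0.96 for CSF1, both set against AsPC-1 levels that held at most 0.145 and 0.58 FPKM, and 0.87 for IL1B, 1.03 for IL1A and 0.55 for CSF2. With a pseudocount of 0.1 FPKM the differences were -0.97 for IL6, -0.42 for CSF1 and 1.08 for IL1B, none of them called (adjusted p = 0.0874, 0.529 and 0.161), and with the libraries as labelled the IL1B difference was 0.62 (adjusted p = 0.249) and that of IL1A 0.28 (adjusted p = 0.847).

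Around the cytokines, 82 of 83 genes of their receptors, partners and regulators were in the table. Those written as having risen or fallen had an adjusted p under 0.05, and with all 3 libraries as labelled none of the siB3GNT3 changes in AsPC-1 was called. The shares of all genes called, 58.2%, 52.9% and 32.9%, hold beside every count of a list, and with median-ratio scaling 49.2%, 46.6% and 46.2% of the called genes were higher, in place of 60.4%, 61.3% and 56.8% (siB4GALT5 and siB3GNT3 in AsPC-1, then Capan-1). Means are given ± SD, with n = 2 for siB3GNT3 in AsPC-1 and n = 3 elsewhere. The signalling receptor of both IL-1 cytokines, IL1R1, lay higher in the knockdown libraries of both lines. It averaged 1.98 ± 0.181 FPKM with siB4GALT5 and 1.62 ± 0.143 FPKM with siB3GNT3, against 0.779 ± 0.105 FPKM with siNC in AsPC-1, and 16.1 ± 1.94 FPKM with siB3GNT3, against 7.49 ± 0.383 FPKM with siNC in Capan-1. It rose in Capan-1 (log2 change 1.01, adjusted p = 0.000322). In AsPC-1 every siNC library was below 1 FPKM, so the gene passed the filter only through the knockdown groups, and its changes there (0.75 with siB4GALT5 and 0.56 with siB3GNT3) are descriptions. SIGIRR, which encodes an inhibitory receptor of the IL-1 family, fell with siB3GNT3 in AsPC-1 to 3.91 ± 0.107 FPKM, against 17.5 ± 1.25 FPKM with siNC (-1.91). With siB4GALT5 it fell to 13.8 ± 0.445 FPKM (-0.32, adjusted p = 0.00219, and 0.591 with the libraries as labelled), and siB4GALT5 minus siB3GNT3 was 1.59 (adjusted p = 1.25e-06). As labelled, SIGIRR differed by 0.92 between the knockdowns and was not called (adjusted p = 0.193). In Capan-1, where it averaged 3.38 ± 0.693 FPKM with siB3GNT3 and 3.80 ± 0.335 FPKM with siNC, its change of -0.14 was not called. The co-receptor IL1RAP fell with siB4GALT5 (-0.70) and rose with siB3GNT3 in AsPC-1 (0.49) and in Capan-1 (0.43), where the call was lost without siNC replicate 1, 2 or 3 (adjusted p = 0.0598, 0.0807 and 0.079). These 3 are the only ones of 8 IL-1 family receptors that passed the filter in either line.

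Downstream of the receptor, the kinase gene IRAK2 rose in AsPC-1 to 6.92 ± 0.0641 FPKM with siB4GALT5 and 7.25 ± 0.32 FPKM with siB3GNT3, against 1.29 ± 0.229 FPKM with siNC (log2 changes 1.79 and 1.85). It was 4.87 ± 1.45 FPKM with siB3GNT3 in Capan-1, against 5.65 ± 0.208 FPKM with siNC, and not called, and the responses of the lines differed by 2.06 (adjusted p = 1.43e-05). With the libraries as labelled, the IRAK2 responses differed by 1.45 and were not called (adjusted p = 0.0857). IRAK3, which encodes a kinase-dead brake on the pathway, rose in Capan-1 (0.68). Of 10 signalling genes tested in AsPC-1, 4 were higher and 1 lower with siB4GALT5 and 4 higher and 2 lower with siB3GNT3; of 10 tested in Capan-1, which include IRAK3 in place of TRAF6, 3 were higher and none lower. These shares are near those of all genes. Among genes of IL-1 processing and release, the inflammatory caspase gene CASP1 rose in Capan-1. CASP1 averaged 14.9 ± 0.982 FPKM with siB3GNT3, against 5.62 ± 0.951 FPKM with siNC (log2 change 1.27). CASP5 averaged 3.45 ± 0.583 FPKM with siB3GNT3, against 0.909 ± 0.00854 FPKM with siNC; all siNC libraries were below 1 FPKM, so it passed the filter only through the knockdown group and its change of 1.21 is a description. In AsPC-1, CASP1 was at most 0.135 FPKM and CASP5 was listed at 0, in the line with more IL1B mRNA. GSDME, which encodes a pore-forming gasdermin, fell in AsPC-1 with siB3GNT3 (-0.65). All siB4GALT5 libraries were below 1 FPKM, so GSDME passed the filter only through the other groups. Its change with siB4GALT5 (-1.15) is a description. The processing and release list had 1 gene higher and 6 lower, GSDME included, of 8 tested with siB4GALT5. It had 1 higher and 5 lower of 8 with siB3GNT3 in AsPC-1, and 3 higher, CASP5 included, and 1 lower of 10 in Capan-1. Over all genes, 58.2%, 52.9% and 32.9% were called in these comparisons.

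**Figure D3:**
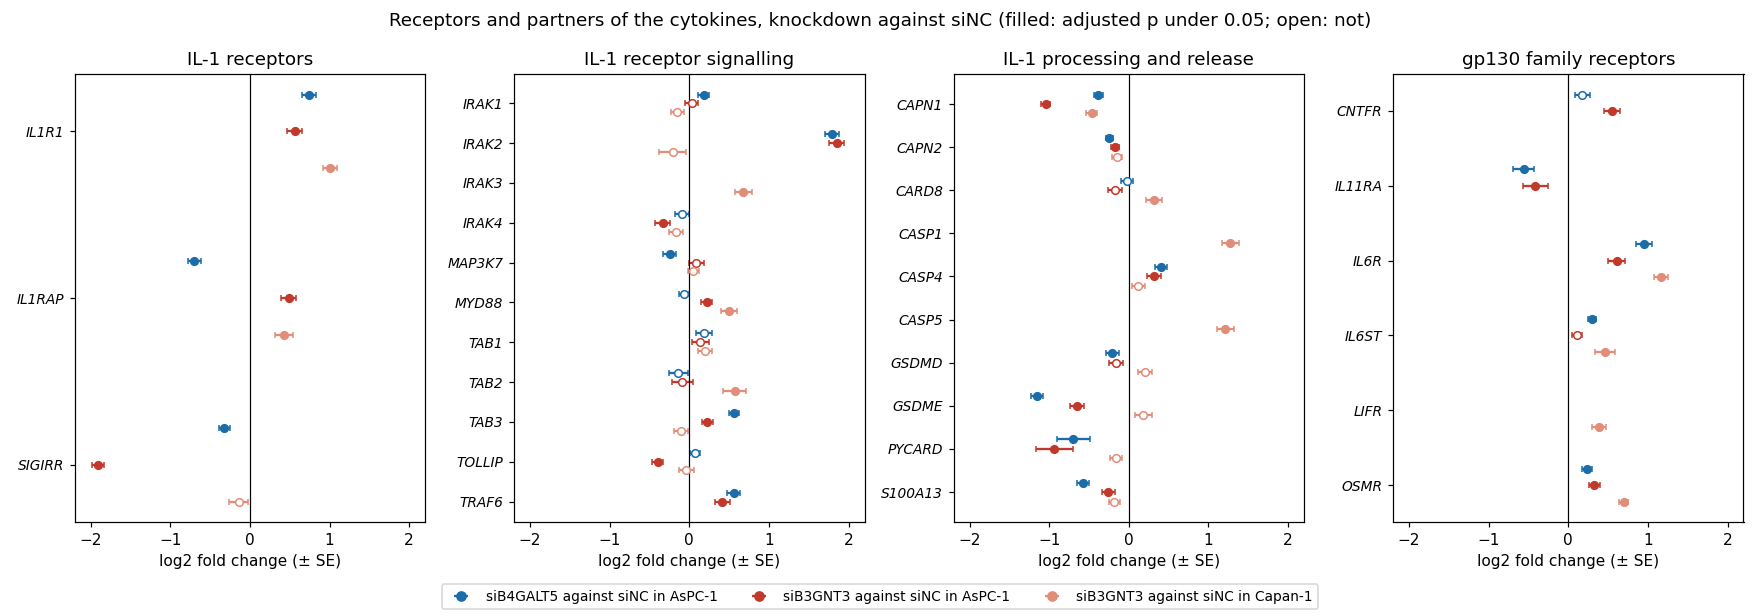
Log2 change of FPKM + 1 (x axes, ± standard error) of IL-1 receptors, IL-1 signalling genes, IL-1 processing genes and gp130 family receptors that passed the filter (y axes), in the same comparisons; filled points have an adjusted p under 0.05 and a gene with no point in a comparison did not pass its filter. IRAK2 rose in AsPC-1 (1.79 and 1.85), and CASP1 and CASP5 have points only in Capan-1 (1.27 and 1.21). IL1R1 and IL6R in AsPC-1 and CASP5 in Capan-1 passed the filter only through knockdown libraries. GSDME was below 1 FPKM in every siB4GALT5 library.

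For the gp130 cytokines, the ligand-binding receptor gene IL6R lay higher in the knockdown libraries of both lines. It averaged 1.63 ± 0.271 FPKM with siB4GALT5 and 1.07 ± 0.0172 FPKM with siB3GNT3, against 0.360 ± 0.0892 FPKM with siNC in AsPC-1, and 6.68 ± 0.633 FPKM with siB3GNT3, against 2.42 ± 0.184 FPKM with siNC in Capan-1. It rose in Capan-1 (log2 change 1.17), while in AsPC-1 all siNC libraries were at or below 0.462 FPKM, so it passed the filter only through the knockdown groups and its changes (0.95 and 0.61) are descriptions. In Capan-1, IL6R, the oncostatin M receptor OSMR (0.69), the LIF receptor LIFR (0.39) and IL6ST, which encodes gp130 (0.46), were called higher, all 4 that could be tested there, beside 32.9% called over all genes. The IL6ST call was lost without siB3GNT3 replicate 1 (adjusted p = 0.0583) or 2 (adjusted p = 0.0791) or any 1 siNC library (adjusted p = 0.0646 to 0.0851), and the LIFR call without siNC replicate 3 (adjusted p = 0.0571). In AsPC-1, 3 of 5, IL6R included, were higher and 1 lower with each knockdown, and the lower one was IL11RA (-0.56 with siB4GALT5 and -0.41 with siB3GNT3). Its siB3GNT3 call was lost without siB3GNT3 replicate 1 or 2 or siNC replicate 1 or 2 (adjusted p = 0.0803 to 0.165). OSMR with siB4GALT5 (0.24) was not called with median-ratio scaling (adjusted p = 0.0539) or with the libraries as labelled (adjusted p = 0.127). Of other gp130 ligands, CLCF1 rose in AsPC-1 (0.76 with siB4GALT5 and 0.71 with siB3GNT3), and CTF1 was called too (0.43 and 0.38), with 1 siNC library above 1 FPKM and the siB3GNT3 call on CTF1 being lost without siB3GNT3 replicate 2 (adjusted p = 0.175) or siNC replicate 1 or 3 (adjusted p = 0.0857 and 0.0737). Neither of the 2 tested was called in Capan-1.

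Transcription factors known to act on cytokine genes were called as follows. Of 12 tested, 11 were higher and 1 lower with siB4GALT5 in AsPC-1, 10 higher and 2 lower with siB3GNT3, and 8 higher and 1 lower in Capan-1, beside 58.2%, 52.9% and 32.9% called in either direction over all genes. FOS is among the higher ones in AsPC-1, but all its siNC libraries were below 1 FPKM, so it passed the filter there only through the knockdown groups. REL likewise passed in Capan-1 only through siB3GNT3 (1.00 to 1.87 FPKM, against at most 0.941 FPKM with siNC). The counts and medians of this list include both genes and are descriptions to that extent. ATF3, a stress-induced factor, averaged 11.6 ± 1.84 FPKM with siB4GALT5 and 10.4 ± 0.338 FPKM with siB3GNT3, against 1.29 ± 0.237 FPKM with siNC in AsPC-1, and 6.05 ± 3.62 FPKM with siB3GNT3, against 1.11 ± 0.0801 FPKM with siNC in Capan-1 (log2 changes 2.46, 2.32 and 1.61). CEBPB (1.57, 1.63 and 1.42) and CEBPD (1.52, 1.31 and 1.25), both of the C/EBP family, and NFKBIZ (0.94, 0.97 and 0.85), which makes a co-regulator of NF-kB targets that include IL6, rose in the same 3 comparisons. The AP-1 subunit JUN rose in AsPC-1 (1.46 and 1.32) and was not called in Capan-1 (-0.13), and the responses of the lines to siB3GNT3 differed by 1.45 (adjusted p = 4.27e-06). With the libraries as labelled, the JUN responses differed by 1.02 and were not called (adjusted p = 0.0801). FOSL1 fell with siB3GNT3 in AsPC-1 (-0.67) and Capan-1 (-1.06) and changed by -0.13 with siB4GALT5. In AsPC-1, ETS2 averaged 20.4 ± 0.564 FPKM with siB4GALT5 and 20.9 ± 0.0376 FPKM with siB3GNT3, against 10.7 ± 1.05 FPKM with siNC. In Capan-1 it averaged 11.1 ± 1.17 FPKM with siB3GNT3 and 9.87 ± 1.66 FPKM with siNC. Among decay factors of AU-rich cytokine mRNAs, ZFP36L1 rose in all 3 (1.16, 0.45 and 0.91). Others differed between the knockdowns in AsPC-1. ZFP36 averaged 40.9 ± 4.56 FPKM with siB4GALT5 and 19.3 ± 1.01 FPKM with siB3GNT3, against 18.2 ± 1.2 FPKM with siNC. In that order, ZFP36L2 averaged 20.1 ± 2.45, 33.4 ± 1.91 and 28.8 ± 0.885 FPKM. KHSRP averaged 41.0 ± 1.15, 63.0 ± 1.18 and 59.5 ± 3.94 FPKM. Between the knockdowns, 4 of 11 were higher and 4 lower, beside 35.1% called over all genes. Of the list, 6 were higher and 2 lower of 11 with siB4GALT5, 4 higher and 1 lower with siB3GNT3 in AsPC-1, a share below that of all genes, and 7 higher and 1 lower in Capan-1. The median log2 change of the transcription factors was 0.91, 0.92 and 0.48, beside the all-gene medians given above.

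The genes most like each member over the 15 libraries were sought among 6414 that varied enough. They were ranked by Pearson correlation of log2(FPKM + 1) after the siNC mean of the same line was subtracted. This is a description in which the 2 lines and the knockdowns are shared by all points. IL1A was most like RNF41 (r = 0.989) and MAFF (0.987), CSF1 most like PRDM1 (0.973), LIF most like DDX59 (0.949), IL18 most like ARFGEF2 (0.901) and IL1B most like CYLD (0.887). IL6 was most like ZFP30 and SFRP5 (both 0.992), and its deviations from siNC came mainly from siB3GNT3 in Capan-1. CSF2 had the weakest best match, SEMA4G at 0.762.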

How the data were processed

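RNA was sequenced in 15 libraries of 5 groups, taken from the titles. Per the submitters' processing notes the authors used Bowtie2, RSEM 1.3.1 and DESeq2 1.4.5 with GRCh38; they deposited one table of FPKM values for 25503 genes, whose FPKM already divide by depth and length, with no counts. From there, log2(FPKM + 1) was tested with limma 3.58.1 (intensity trend, R 4.3.3) on genes with at least 1 FPKM in at least 3 libraries of the fit, with Benjamini-Hochberg adjustment over all genes tested (10804 in AsPC-1, 11493 in Capan-1, 12247 in both). AsPC-1 siB3GNT3 replicate 3 had a coefficient of its own. The members, gene lists and that choice were made with earlier results of these data known. All 10 members are named. From each list, named changes come mainly from the up to 4 called genes of smallest p per comparison. Not all of these are named, and genes picked in 1 comparison are also given in others. The fit was tested on simulated data with 200 changed genes. Fragments of low genes were estimated from the smallest FPKM step and came out whole to within rounding. Promoter windows are from RefSeq. Alternatives were pseudocount 0.1, other filters and scalings, a replicate block, libraries as labelled, a 2-fold threshold and leaving out each library.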

Additional observations from a re-analysis of the deposited data

Results flagged for a closer look

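The interaction test of the siB3GNT3 response gave 4 cytokines an adjusted p under 0.05, and each difference is of AsPC-1 minus Capan-1 on the log2(FPKM + 1) scale. Only LIF was above 1 FPKM in both lines. IL6 and CSF1 passed the filter through Capan-1 alone and IL1B mainly through AsPC-1 (Capan-1 at most 1.00 FPKM), and with a pseudocount of 0.1 these 3 were not called (adjusted p = 0.0874, 0.529 and 0.161). IL1B differed by 0.87, with 4.71 and 4.43 FPKM in the siB3GNT3 libraries of AsPC-1, both above their siNC libraries, while the Capan-1 groups overlap. LIF differed by 0.71, with both siB3GNT3 libraries above siNC in AsPC-1 and overlap in Capan-1. With the AsPC-1 libraries as labelled, neither LIF (0.54, adjusted p = 0.138) nor IL1B (0.62, adjusted p = 0.249) was called. IL6 differed by -1.50 and CSF1 by -0.96, with all 3 siB3GNT3 libraries of Capan-1 above siNC, and AsPC-1 levels of at most 0.145 FPKM for IL6 and 0.374 FPKM for CSF1 with siB3GNT3.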

How the results depend on the processing

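No value changed its sign among called results under any alternative run. Of the values of single cytokines under alternatives, 445 kept their side of the threshold, 44 lost a call and 12 gained one; for pathway genes, 1941 kept it and 257 lost a call. With siB4GALT5, where 3 members were called, 1 was called with no filter, with median-ratio scaling, with the libraries as labelled and at 2-fold or more (441 genes at 2-fold). With siB3GNT3 in AsPC-1, 0 genes and 0 members were called as labelled, and 435 genes and 1 member at 2-fold. In Capan-1, 209 genes passed at 2-fold. Between the knockdowns, 1716 genes were called as labelled and 205 at 2-fold. In the interaction, 1 member was called with pseudocount 0.1, 1204 genes and 2 members as labelled, and 410 genes and 1 member at 2-fold; between the lines 3113 genes passed at 2-fold. The cause of these moves was not tested. Leaving out 1 library at a time, members called ranged from 1 to 4 (genes 5415 to 6879) with siB4GALT5, 3 to 4 (4081 to 4948) with siB3GNT3 in AsPC-1, 2 to 4 (2069 to 5715) in Capan-1, 0 to 2 (2138 to 4870) between knockdowns, 3 to 5 (2836 to 5033) in the interaction and 6 to 6 (9079 to 9143) between the lines. The Capan-1 count was 5715 without siB3GNT3 replicate 3 and 2069, 2083 and 2112 without siNC replicates 1, 2 and 3; that between knockdowns was 2138 and 2192 without siB3GNT3 replicates 1 and 2. Scaling moved the share of calls that were higher from 60.4% to 49.2% (median ratio) or 70.7% (common sum) with siB4GALT5, from 61.3% to 46.6% or 72.1% with siB3GNT3 in AsPC-1, from 56.8% to 46.2% or 63.6% in Capan-1, and from 57.9% to 47.1% or 63.9% in the interaction. The common sum moved the all-gene median to 0.14 with siB4GALT5, 0.15 with siB3GNT3 in AsPC-1 and -0.23 between the lines, where the share higher was 35.7%, against 44.2% unscaled. Libraries of different groups with the same replicate number in the titles showed little correlation (-0.0666 to 0.0699). Pairing by the numbers in the library names was not tested. With 2 siB3GNT3 libraries kept in AsPC-1, their correlations mirror each other, so this check cannot exclude pairing. With a replicate block, IL1B with siB4GALT5 had an adjusted p of 0.0545, IL1B in the interaction 0.0782, and LIF between the knockdowns was called (-0.28, adjusted p = 0.0475), 1 member in all. Depth limits IL6, IL11 and IL33 in AsPC-1, where a library held at most 17 estimated fragments of each.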

Other observations

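Between IL1B and IL1RN on chromosome 2 lie further IL-1 family genes. IL36B, which encodes a ligand of the IL-36 receptor, averaged 1.12 ± 0.09 FPKM with siB4GALT5 (SD, n = 3) and 0.844 FPKM with siB3GNT3 (n = 2), against 0.131 ± 0.09 FPKM with siNC in AsPC-1 (log2 differences 0.91 and 0.71). It reached 1 FPKM only in the siB4GALT5 libraries and so passed the filter through that group alone, and these differences are descriptions. In Capan-1 it was listed at 0 in all siB3GNT3 libraries and was at most 0.0243 FPKM with siNC. IL37, IL36G and IL36RN stayed below 0.4 FPKM and IL1F10 was listed at 0 in every group.

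CSF3, which encodes the granulocyte growth factor G-CSF, held 2.40 to 14.5 FPKM with siB3GNT3 in Capan-1, against 1.45 to 1.94 FPKM with siNC, a log2 change of 1.33 that was not called (adjusted p = 0.0548) although the groups did not overlap. In AsPC-1 it was at most 0.084 FPKM in any library.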
